A study of Saccharomyces cerevisiae with 2 samples.

Results

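Dubious open reading frames are stretches of yeast genome that begin with a start codon and end with a stop codon but that genome curators judge unlikely to encode a protein. The deposited table classed 573 of its 6448 rows as dubious, and all 573 are described here, beside 5309 rows classed as protein-coding and 566 classed as putative. BioGRO-seq, a genomic run-on assay that labels RNA made by engaged polymerases with a biotin nucleotide, was applied to 1 library of an xrn1 deletion strain from the Euroscarf collection and 1 library of the wild-type strain BY4741, both of Saccharomyces cerevisiae and both grown to an OD600 of 0.55. Xrn1 is the cytoplasmic exonuclease that degrades decapped mRNA, and the series asks how it affects transcription. The libraries held 46396400 counts for the xrn1 deletion and 64934493 for the wild type, and XRN1 itself had 53 counts in the xrn1 deletion library and 41954 in the wild-type library, 555-fold lower relative to the median gene (95% counting interval 424 to 741). Neither strain has a replicate, so every interval below covers counting error only, differences between shares were not tested and no p-value is given.

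The systematic name of a yeast frame gives its chromosome, its arm, a number counted outwards from the centromere, and a letter for the strand, W (Watson) or C (Crick). A frame with a suffix such as -A was named after the numbering was made and lies close to the frame of the same number. Many dubious frames overlap a verified gene, often on its other strand, and deleting such a frame also damages that gene. Run-on reads in such a frame can belong to antisense transcripts, to the leader or trailer of a neighbouring gene, or to a transcript of their own. Of the 573 frames, 287 carried the letter W and 286 the letter C, and 209 had a suffix. A protein-coding row with the same or an adjacent number was present for 556 of them, and 189 had one with the same number.

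The sequences of 3 members are shown because RefSeq places only these 3 dubious rows on the R64 genome, and each lies across a gene of the other strand. The first 300 bases of each frame are printed 5′ to 3′ on its own strand, which is the minus strand for all 3, and capitals mark the bases that the frame shares with the opposite gene. The stretches are chrIX:246616-246915 for YIL059C, chrXIII:415754-416053 for YMR075C-A and chrXVI:729814-730113 for YPR099C.
YIL059C: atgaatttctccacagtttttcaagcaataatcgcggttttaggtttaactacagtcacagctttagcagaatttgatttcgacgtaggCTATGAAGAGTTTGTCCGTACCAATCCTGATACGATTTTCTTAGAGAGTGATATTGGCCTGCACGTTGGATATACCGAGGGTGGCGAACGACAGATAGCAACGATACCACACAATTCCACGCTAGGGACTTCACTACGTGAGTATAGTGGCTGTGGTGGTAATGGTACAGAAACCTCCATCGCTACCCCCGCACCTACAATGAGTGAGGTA
YMR075C-A: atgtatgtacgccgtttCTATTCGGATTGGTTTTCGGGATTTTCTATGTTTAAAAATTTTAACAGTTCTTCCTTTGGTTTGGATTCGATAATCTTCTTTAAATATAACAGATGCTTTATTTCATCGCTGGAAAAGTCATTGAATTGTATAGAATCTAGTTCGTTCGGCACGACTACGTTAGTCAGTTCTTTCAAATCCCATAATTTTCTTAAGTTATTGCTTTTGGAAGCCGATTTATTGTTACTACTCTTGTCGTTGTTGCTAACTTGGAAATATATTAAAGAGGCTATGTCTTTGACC
YPR099C: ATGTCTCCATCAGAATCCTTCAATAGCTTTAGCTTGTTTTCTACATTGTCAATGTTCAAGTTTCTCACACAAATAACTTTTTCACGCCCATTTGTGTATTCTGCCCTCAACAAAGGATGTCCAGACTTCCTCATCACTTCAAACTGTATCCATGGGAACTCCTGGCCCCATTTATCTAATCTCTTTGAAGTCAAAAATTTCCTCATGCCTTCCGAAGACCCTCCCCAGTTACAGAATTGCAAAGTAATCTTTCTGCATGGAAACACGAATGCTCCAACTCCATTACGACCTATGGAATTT

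YIL059C shared 75.7% of its 366 bases with YIL060W, and the paired rows had very different counts. The dubious frame had 1724 counts in the xrn1 deletion library and 1948 in the wild-type library, while YIL060W had 19 counts in the xrn1 deletion library and 49 in the wild-type library. YPR099C shared 90.5% of its bases with MRPL51, which encodes a protein of the large mitochondrial ribosomal subunit. YPR099C had 65 counts in the xrn1 deletion library and 156 in the wild-type library, a log2 ratio of −0.75. MRPL51 had 3088 counts in the xrn1 deletion library and 3293 in the wild-type library, a log2 ratio of 0.42. These rows thus lay on different sides of the median gene although they cover largely the same bases. YMR075C-A shared 95.4% of its bases with RCO1, which encodes a subunit of a histone deacetylase complex, and the log2 ratios were −0.28 for the frame and −0.22 for the gene. Ratios here and below are xrn1 deletion over wild type after division by 0.701, which is the median of the raw ratios over protein-coding rows with at least 100 counts, so 0 on the log2 scale is the median gene.

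Dubious frames were sparsely counted. Over both libraries, 96 frames (16.8%) had under 20 counts, 142 (24.8%) had 20 to under 100, 201 (35.1%) had 100 to under 1000, 123 (21.5%) had 1000 to under 10000 and 11 (1.92%) had 10000 or more. The median was 175 counts, against 9913 for protein-coding rows. These counts were not divided by length, since the table gives no lengths, so they compare depth and not transcription per base. In the xrn1 deletion library 11 dubious rows had 0 counts, and in the wild-type library 0 rows of any class did. Every row of the table thus had at least 1 wild-type count, and whether frames without wild-type counts were left out of the table is not stated in the labels.

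All 573 frames together took 0.617% of the counts (286374) in the xrn1 deletion library and 0.561% (363981) in the wild-type library. The 10 frames with the most counts made up 31.7% of the dubious counts in the xrn1 deletion library and 27.5% in the wild-type library. Without these 10 the shares were 0.421% in the xrn1 deletion library and 0.406% in the wild-type library, so the shares lay closer together without these frames.

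Of the 335 dubious frames with at least 100 counts, 27 (8.06%) were called higher in the xrn1 deletion library and 13 (3.88%) were called lower, meaning a difference of 2-fold or more with a 95% counting interval that excluded 1. By the same rule 4.49% of all 5994 rows with that many counts were higher and 1.89% lower. Of the classes, 4.06% of the 5198 protein-coding rows were higher and 1.52% were lower, and of the 461 putative rows 6.72% were higher and 4.56% lower. The median log2 ratio of the 335 frames was 0.08, with quartiles at −0.36 and 0.44, and the quartiles of protein-coding rows were −0.22 and 0.26. Of the frames, 186 (55.5%) lay above the median gene and 221 (66.0%) lay within 1.5-fold of it.

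The share of rows called differed with depth in both classes. Among rows with 100 to under 300 counts, 13 of 96 dubious frames (13.5%) were called higher and 6 (6.25%) lower, against 23.8% and 15.0% of the 80 protein-coding rows. Among rows with 300 to under 1000 counts, 5.71% of the 105 frames were called higher and 4.76% lower, against 19.8% and 10.5% of the 162 protein-coding rows. Within these depths the shares of dubious frames called were below those of genes in both directions, unlike the pooled shares. From 1000 to under 3000 counts, 5.33% of the 75 frames were called higher and 1.33% lower, against 7.27% and 2.05% of the 440 genes. At 3000 counts or more the shares of frames were above those of genes, with 4 of 59 frames higher (6.78%) and 1 lower (1.69%), against 2.83% and 0.908% of the 4516 genes. Counting alone would give a distance between the quartiles of 0.15 on the log2 scale, taken as the median of the values for each of the 335 frames. The observed distance was 0.81. For the 5198 protein-coding rows the same values were 0.04 and 0.47, so a spread beyond counting was not particular to dubious frames.

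**Figure D1:**
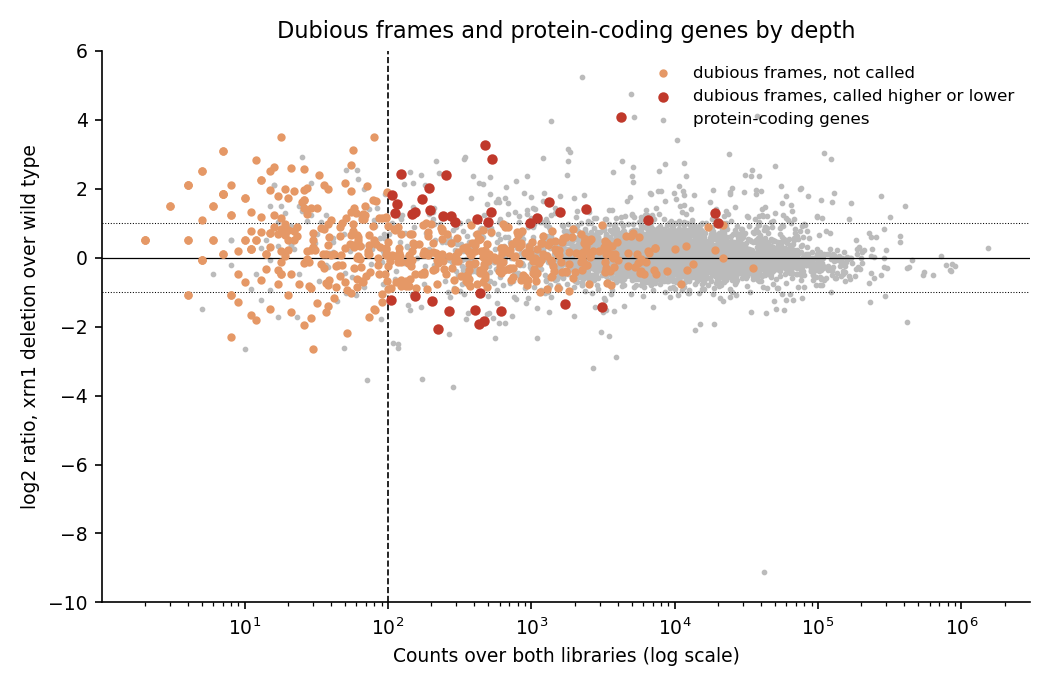
Log2 ratio (xrn1 deletion over wild type, relative to the median gene) against counts over both libraries on a log scale, for dubious frames (orange, or red where called) and protein-coding rows (grey); rows with 0 counts in the xrn1 deletion library are not drawn. The dashed line marks 100 counts and the dotted lines a 2-fold difference, and most of the 335 measured dubious frames sit at the shallow end, around the median of 0.08.

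**Figure D2:**
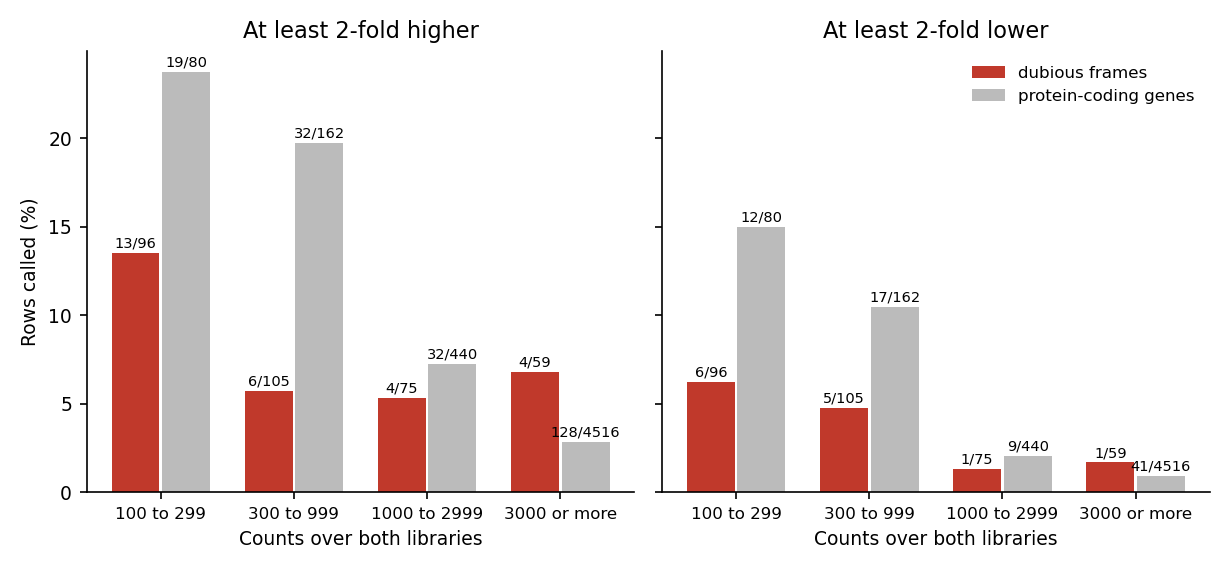
Percent of dubious frames (red) and of protein-coding rows (grey) called at least 2-fold higher (left) or lower (right) in the xrn1 deletion library, by counts over both libraries; numbers above the bars are called rows over rows at that depth. From 100 to under 300 counts, 13.5% of dubious frames and 23.8% of protein-coding rows were called higher.

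The dubious frames that stood highest in the xrn1 deletion library fell into those beside a gene that was also high and those with no such gene of at least 100 counts among their numbered neighbours. YFR052C-A had 3866 counts in the xrn1 deletion library and 326 in the wild-type library, 16.9-fold higher (95% counting interval 15.1 to 19.0). Its neighbour on the same strand, HXK1 (YFR053C, chromosome VI, 253592 to 255049), the glucose-repressed hexokinase gene, had 34620 counts in the xrn1 deletion library and 2862 in the wild-type library, 17.2-fold higher (16.6 to 17.9). The intervals of the frame and of HXK1 overlap, whereas the gene of the same number on the other strand, the proteasome gene RPN12, was at a log2 ratio of 0.19 and the other same-letter neighbour, the coatomer gene RET2, at 0.08. YPR160W-A had 447 counts in the xrn1 deletion library and 88 in the wild-type library, 7.24-fold higher (5.75 to 9.21). GPH1 (YPR160W, chromosome XVI, 861306 to 864014), which encodes glycogen phosphorylase and has the same letter, was 6.53-fold higher (6.18 to 6.91). The row YPR160C-A, of the same number but the other letter, had 223 counts in the xrn1 deletion library and 874 in the wild-type library and was 2.75-fold lower (2.37 to 3.20).

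Other high frames had numbered neighbours near or below the median gene where these were well counted. YGR259C had 415 counts in the xrn1 deletion library and 62 in the wild-type library, 9.54-fold higher (7.29 to 12.7). Its numbered neighbours were the DNA repair nuclease gene RAD2 on the same strand, at a log2 ratio of 0.13, and the nicotinic acid permease gene TNA1 on the other, at 0.30, with 1718 bases between them. YLR232W, with 201 counts in the xrn1 deletion library and 54 in the wild-type library, was 5.31-fold higher (3.91 to 7.31), while the kynureninase gene BNA5 (−0.79) and the telomerase gene EST1 (−0.44) on either side were below the median gene. YPL136W was 4.05-fold higher (2.91 to 5.71) beside the iron-sulfur scaffold gene ISU1 at −0.60 and GIP3 at 0.16. A sparsely counted neighbour, YPL135C-A, with 12 counts in the xrn1 deletion library and 4 in the wild-type library, was 4.28-fold higher (1.30 to 18.2). YNL338W, near the end of chromosome XIV and without a protein-coding row of the same or adjacent number, had 97 counts in the xrn1 deletion library and 26 in the wild-type library and was 5.32-fold higher (3.42 to 8.55).

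The rest of the 12 highest frames lay between 2.60-fold and 3.50-fold. YML057C-A (3.50-fold) shares its number with the calcineurin gene CMP2, which was at 0.36 on the other strand, and IMD4 on its own strand was at −0.55. YIR023C-A (3.23-fold) shares its number with the nitrogen regulator gene DAL81, at −0.02 on the other strand, and INA22 on its own strand was at 0.44. YGL052W rested on more counts, 911 in the xrn1 deletion library and 424 in the wild-type library (3.06-fold, 2.73 to 3.45), and its same-strand neighbours PRM8 and MST27 were at 0.70 and 0.89. YCR049C was 2.93-fold higher beside the sterol acyltransferase gene ARE1 at 0.35 on the other strand and YCR050C at −0.80 on its own strand. YOL099C, with 1565 counts in the xrn1 deletion library and 834 in the wild-type library, was 2.68-fold higher (2.46 to 2.91) between SDD3 at −0.11 and the protein kinase gene PKH2 at 0.02. YML047W-A had 126 counts in the xrn1 deletion library and 69 in the wild-type library, 2.60-fold higher (1.93 to 3.54). The gene of the same number, PRM6, lies on the other strand (YML047C, chromosome XIII, 180017 to 181075) and encodes a membrane protein regulated by pheromone. PRM6 had 10 counts in the xrn1 deletion library and 162 in the wild-type library and was 11.4-fold lower (6.02 to 24.1). The frame and the gene thus moved in opposite directions.

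**Figure D3:**
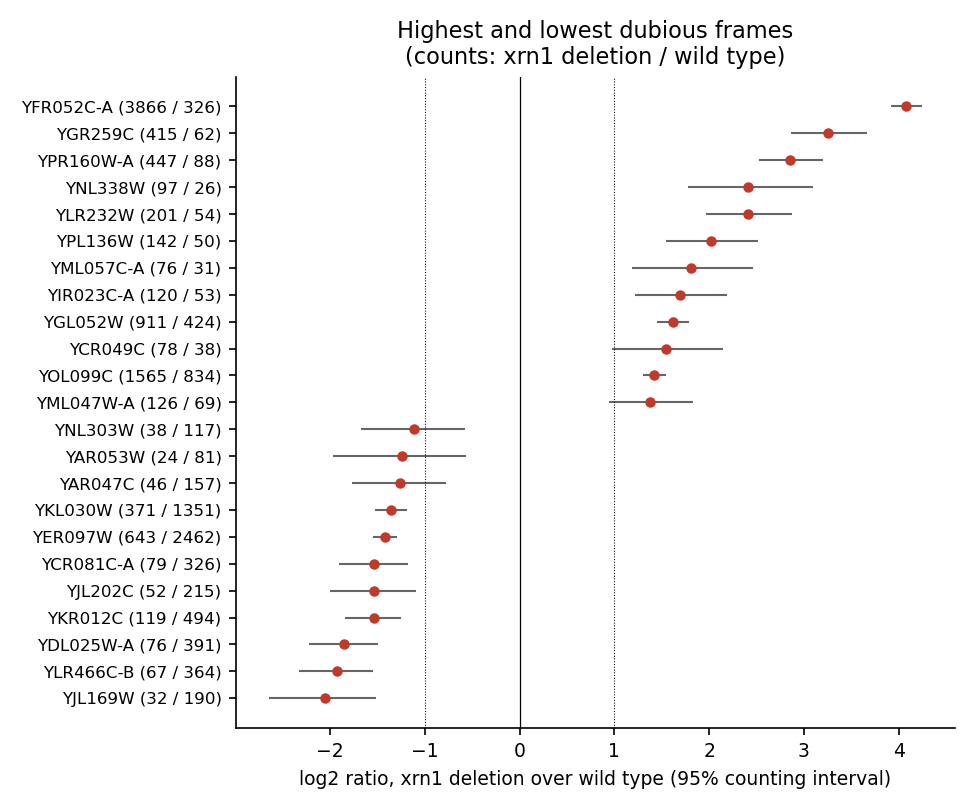
Log2 ratio with its 95% counting interval for the 12 highest dubious frames and 11 of the 12 lowest, with at least 100 counts; counts beside each name are xrn1 deletion / wild type. YHR218W-A, with 0 counts in the xrn1 deletion library, has no finite ratio and is not drawn, and YFR052C-A stands furthest out at 4.08.

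The lowest frames included YHR218W-A and YLR466C-B, which lie in the repeats of chromosome ends. YHR218W-A had 0 counts in the xrn1 deletion library and 156 in the wild-type library. With 3 counts as the floor for the xrn1 deletion library, it was at least 36.5-fold lower, and the interval used for the other ratios, which is 2-sided, has its lower limit at 29.3-fold. The putative row YHR219W, one number further out with the same letter, had 3 counts in the xrn1 deletion library and 186 in the wild-type library. YLR466C-B had 67 counts in the xrn1 deletion library and 364 in the wild-type library, 3.81-fold lower (2.93 to 5.02), and shares its number with the subtelomeric helicase gene YRF1-4, which had 4 counts in the xrn1 deletion library and 67 in the wild-type library. YRF1-5, one number further out, had 0 counts in the xrn1 deletion library and 60 in the wild-type library. Near-identical copies of such end repeats exist on many chromosomes, and how reads that match several of them were counted is not known, so these values are uncertain.

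Among the other low frames, YJL169W had 32 counts in the xrn1 deletion library and 190 in the wild-type library, 4.16-fold lower (2.85 to 6.26). Of its numbered neighbours, both on the other strand, the a-specific gene ASG7 was 2.32-fold lower (1.96 to 2.75) and the histone methyltransferase gene SET2 was at −0.06. YDL025W-A was 3.61-fold lower (2.82 to 4.68), with the kinase gene RTK1 of the same number at 0.13 on the other strand. YKR012C had 119 counts in the xrn1 deletion library and 494 in the wild-type library and was 2.91-fold lower (2.38 to 3.59). PRY2 on the other strand, which encodes a secreted sterol-binding protein, was 2.02-fold higher (1.96 to 2.07), and FPT1 on the same strand was at −0.13. YJL202C was 2.90-fold lower between ECM25 (−0.42) and the splicing factor gene PRP21 (0.20), both of the other strand. YCR081C-A was 2.89-fold lower opposite the Mediator gene SRB8 (−0.08). YER097W, the best covered of the 12 lowest with 643 counts in the xrn1 deletion library and 2462 in the wild-type library, was 2.69-fold lower (2.46 to 2.93) although SHC1 and UBP9 on the same strand were at 0.98 and 0.53. YKL030W was 2.55-fold lower beside the malic enzyme gene MAE1 at −0.04, YNL303W 2.16-fold lower beside the ribosomal protein gene RPS19B at −0.23, and YAR047C and YAR053W, which have no protein-coding row beside them, were 2.39-fold and 2.37-fold lower.

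The 8 frames with the most counts gave the most precise ratios. YDR154C had 12686 counts in the xrn1 deletion library and 22386 in the wild-type library, a log2 ratio of −0.31, beside the cyclophilin gene CPR1 at −0.17 and ENT5 at −0.06. YMR013W-A was at −0.02, with CLU1 and BUD22 of the same letter at −0.28 and −0.16 and SEC59, of the other letter, at −0.04. YFL032W had 12411 counts in the xrn1 deletion library and 9158 in the wild-type library, 1.93-fold above the median gene (1.88 to 1.99). HAC1, which encodes the transcription factor of the unfolded protein response and has the same letter, was at 1.66-fold (1.64 to 1.67), and the kinase gene RIM15 of the other letter was at a log2 ratio of −0.04. YGR137W had 8522 counts in the xrn1 deletion library and 10482 in the wild-type library, a ratio of 1.16 (1.13 to 1.19). Its same-strand neighbour LSB1 had a ratio of 1.15 (1.13 to 1.18), whereas TPO2, a polyamine exporter gene of the other strand, was 8.15-fold higher (8.02 to 8.29). YOR248W, at −0.18, lay between SRL1 of its own letter at 0.11 and APC5 at 0.10. YDR133C was 2.43-fold higher (2.36 to 2.51), with 11987 counts in the xrn1 deletion library and 7027 in the wild-type library, while MRX16 of the same letter was at −0.42. YCL041C was at 1.86-fold (1.81 to 1.92) beside the glucokinase gene GLK1 and the putative row YCL042W, both of the other letter, at 2.98-fold and 2.64-fold.

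YBR126W-B had 11650 counts in the xrn1 deletion library and 8266 in the wild-type library, 2.01-fold higher (1.95 to 2.07). Under the 4 other scalings tried its log2 ratio was 0.98 to 0.99, just below the 2-fold needed for a call. RefSeq notes that it partly overlaps MEO1 (YBR126W-A, chromosome II, 490850 to 491056), a gene of the same letter for a small protein that locates to the endoplasmic reticulum, which was 2.11-fold higher (2.06 to 2.16). TPS1 (YBR126C, chromosome II, 488905 to 490392), which encodes trehalose-6-phosphate synthase and is read from the other strand, was 3.65-fold higher (3.61 to 3.70). The starts of TPS1 and MEO1 face away from each other with 457 bases between them. The sequences from 250 bases before to 50 bases after both start codons are shown because the frame lies at these genes and all 3 were above the median gene, with every AGGGG, the core of the yeast stress response element, in capitals on either strand (CCCCT on the other). They are chrII:490600-490899 on the plus strand for MEO1 and chrII:490343-490642 on the minus strand for TPS1, in R64, and they share 43 bases.
MEO1: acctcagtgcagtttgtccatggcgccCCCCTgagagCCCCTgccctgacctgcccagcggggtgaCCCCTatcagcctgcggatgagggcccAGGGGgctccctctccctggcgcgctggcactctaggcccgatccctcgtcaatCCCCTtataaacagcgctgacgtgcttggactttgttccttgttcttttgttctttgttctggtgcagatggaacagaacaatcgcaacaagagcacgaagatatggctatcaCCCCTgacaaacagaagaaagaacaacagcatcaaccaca
TPS1: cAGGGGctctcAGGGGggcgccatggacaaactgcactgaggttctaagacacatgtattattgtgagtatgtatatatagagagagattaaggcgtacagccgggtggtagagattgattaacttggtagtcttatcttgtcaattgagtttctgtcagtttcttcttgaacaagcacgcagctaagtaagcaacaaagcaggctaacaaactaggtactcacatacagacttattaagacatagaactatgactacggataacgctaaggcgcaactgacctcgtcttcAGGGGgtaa

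The MEO1 window held 6 matches and the TPS1 window 3, while the windows of HXK1 and GPH1 held 0. Over 5273 protein-coding rows with such a window, 21.3% held AGGGG on either strand and 44.4% held TATAAA on either strand. Among the same-letter neighbours of the frames called higher, 8 of 26 windows (30.8%) held AGGGG and 13 (50.0%) held TATAAA. Among the opposite-letter neighbours, 11 of 40 (27.5%) held AGGGG and 21 (52.5%) held TATAAA. Among the neighbours of the frames called lower, 3 of 6 same-letter windows and 3 of 14 opposite-letter windows (21.4%) held AGGGG, and 4 and 7 of them held TATAAA.

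Across all measured frames, ratios lay closer to those of neighbours with the same strand letter (median absolute difference of the log2 ratios 0.35) than to those of neighbours with the other letter (0.52). For pairs of neighbouring protein-coding rows these differences were 0.36 and 0.34. Frames were thus about as close to same-letter neighbours as genes were, and further from opposite-letter ones. For 320 frames with a protein-coding neighbour, both with at least 100 counts, the correlation of the log2 ratios was weak when the strand letter was ignored (Pearson r = 0.10, Spearman rho = 0.20). With same-letter neighbours alone it was r = 0.34 and rho = 0.27 over 210 frames, and with opposite-letter neighbours alone r = 0.01 and rho = 0.14 over 273 frames. Without YFR052C-A and YPR160W-A the same-letter r was 0.18 and rho 0.25, so the Pearson value rested in large part on these frames. The points share their 2 libraries and frames can share reads with their neighbours, so the correlations are descriptions without a test.

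The difference was widest for genes with the same number as the frame. For the 38 frames with a same-number gene of the same letter, r was 0.78 and rho 0.58, and the median absolute difference of the log2 ratios was 0.29. For the 60 frames with one of the opposite letter, r was −0.10 and rho 0.15, and the median absolute difference was 0.61. Leaving out YPR160W-A, the same-letter values were r = 0.60 and rho = 0.54. Protein-coding rows were set against each other with every pair entered in both directions. For these, r was 0.10 over 102 same-number entries of the same letter and −0.03 over 150 entries of opposite letters. Of the 38 same-letter pairs 30 (78.9%) lay within 1.5-fold of each other, against 29 (47.5%) of the 61 opposite-letter pairs. For the protein-coding entries these shares were 66.7% and 65.3%, and the median absolute differences were 0.31 and 0.43.

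Same-strand pairs at the low side and in the middle of the range included YMR173W-A with DDR48, a stress protein gene, at −0.76 for both, and YDR406W-A with the multidrug transporter gene PDR15 at −0.68 and −1.16. YFR009W-A was at −0.47 with the translation regulator gene GCN20 at −0.38, and YBR191W-A at −0.42 with the ribosomal protein gene RPL21A at −0.33. The largest gaps between pairs of the same letter included YBL068W-A, at 0.63 with the phosphoribosyl pyrophosphate synthetase gene PRS4 at −0.40, and YER088C-A, at 0.00 with the repressor gene DOT6 at 0.93. YER088W-B, which shares that number on the other strand, was at 1.31. Among pairs of opposite letters, YER067C-A was at −0.16 although RGI1, a gene of energy metabolism, was at 1.87. YMR316C-B was at 0.24 and DIA1 at 1.94.

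For 163 frames with neighbours of both letters, 91 (55.8%) were closer to the mean of the same-letter ones, and for protein-coding rows this was 48.6% of 1941. Where the neighbours of the 2 letters differed by at least 2-fold, so that the comparison could tell them apart, 18 of 23 dubious frames (78.3%) were closer to the same-letter side, against 103 of 241 protein-coding rows (42.7%). This subset was chosen after the values were seen.

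**Figure D4:**
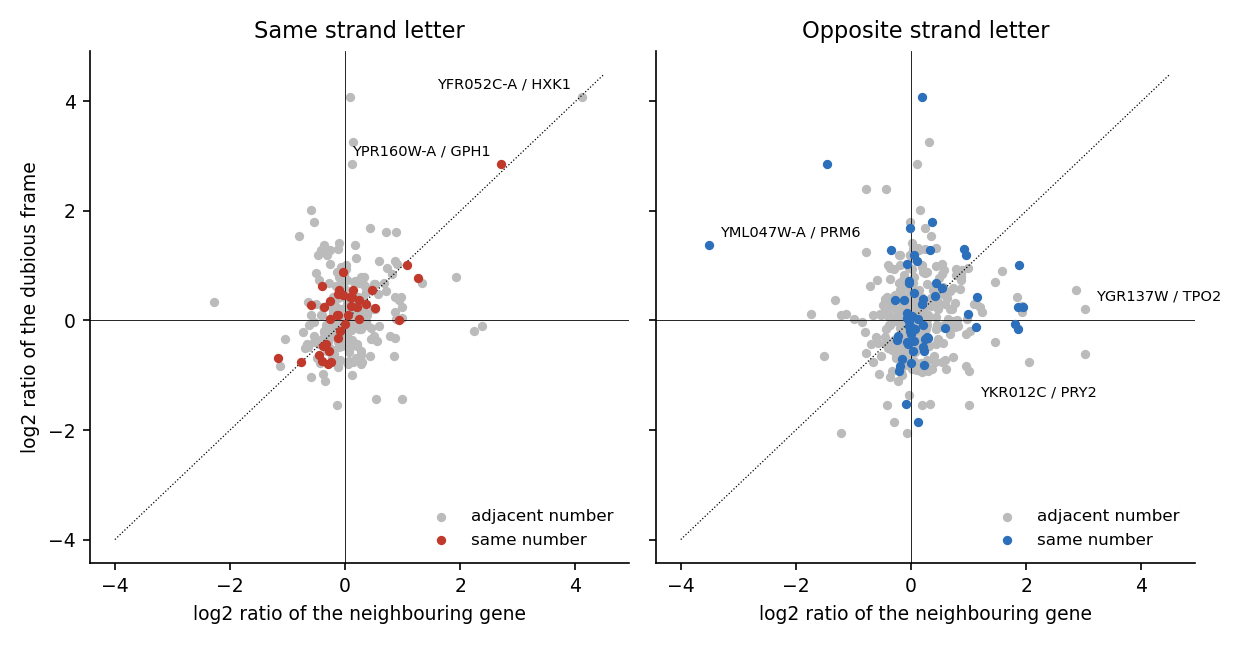
Log2 ratio of a dubious frame (vertical) against that of a protein-coding neighbour (horizontal), for neighbours of the same strand letter (left) and of the opposite letter (right); coloured points share the frame's number, grey ones have an adjacent number, and the dotted line is equality. Same-number points on the left follow the line (r = 0.78), and those on the right do not (r = −0.10).

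RefSeq notes name 15 overlaps of dubious frames with other rows, 7 of the same letter and 8 of opposite letters. YPR169W-A and YPR170W-A were at 0.11 and 0.14 with the putative row YPR170W-B at 0.07, and YLR123C was at −0.13 with YLR122C at −0.04. YOR072W-A was at −0.21 with YOR072W, on fewer counts, at 0.24. YPR039W, with 136 counts in the xrn1 deletion library and 121 in the wild-type library, was at 0.68 with IRC16 at 1.33. Some opposite-letter gaps were of similar size, with YEL010W at −0.10 and the putative row YEL009C-A at 0.44. On few counts, YFL015W-A was at 1.93 and the putative row YFL015C at 2.42. The widest gaps were also in opposite-letter pairs. YBR056C-B was at −0.06 while MNC1, a membrane protein gene induced by heavy metals, was at 1.81. YLR041W was at 0.12 while AFB1, which encodes an a-factor blocker, was at −1.74, with 93 counts in the xrn1 deletion library and 443 in the wild-type library. YOL085W-A was at 0.43 while the putative row YOL085C was at 2.33, on 53 counts in the xrn1 deletion library and 15 in the wild-type library. The sources used here do not state whether the authors counted by strand, and the part of that setting in the difference between letters was not tested.

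**Figure D5:**
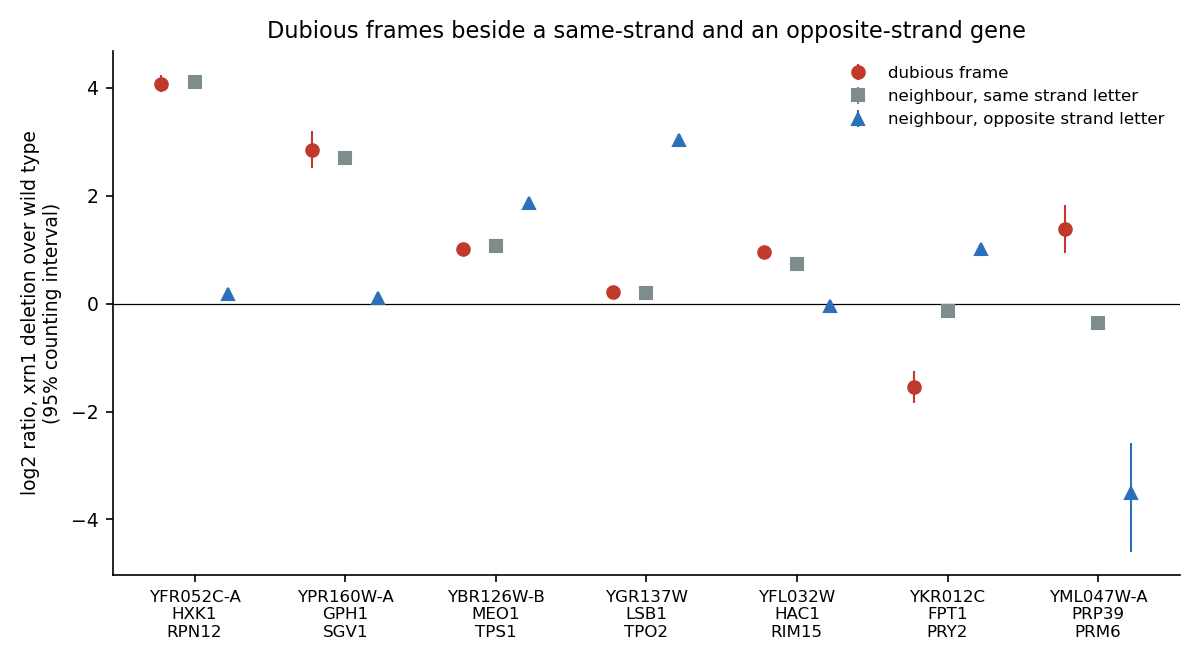
Log2 ratio with its 95% counting interval for 7 dubious frames (red circles), a same-letter neighbour (grey squares, named after the frame) and an opposite-letter neighbour (blue triangles, named last); these loci were picked after their values were seen, and further neighbours of the frames are not drawn. At YGR137W the frame and LSB1 coincide near 0.21 while TPO2 is at 3.03, and at YML047W-A neither neighbour matches the frame.

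Some called frames had a neighbour that was called too. Of the 27 frames called higher, 20 had a measured same-letter gene beside them, in 26 pairs. For 3 of these frames (YFR052C-A, YPR160W-A and YBR126W-B) such a gene was called higher as well. Of the 22 frames with a measured opposite-letter gene, in 39 pairs, this was so for 1 (YBR126W-B with TPS1). For 2 of the 22 (YML047W-A and YPR160W-A) such a gene was called lower. Of all protein-coding rows 4.06% were called higher and 1.52% lower, which are shares per gene, whereas a frame could have more than 1 gene beside it. Under the other 4 scalings YBR126W-B is not called, which leaves the same-letter pairs of YFR052C-A and YPR160W-A and no such opposite-letter pair. Of the 13 frames called lower, 4 had a measured same-letter gene and 0 of these genes were called. Of the 8 with a measured opposite-letter gene, ASG7 beside YJL169W was called lower and PRY2 beside YKR012C was called higher. PRY2, at a log2 ratio of 1.01, is not called under the other 4 scalings. The putative row YPR078C, of the same letter as YPR077C, was called higher at 2.01-fold, and YPR077C itself was at 2.19-fold (1.79 to 2.68). YPR078C too is not called under the other 4 scalings.

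Called genes could also be set against the frames beside them. Among 24 pairs in which the gene was called higher and had the opposite letter, 1 frame was called higher and 1 lower, and among 8 same-letter pairs 3 frames were called higher and 0 lower. The frame called lower was YKR012C beside PRY2, a gene not called under the other scalings. Of all 335 frames, 8.06% were called higher and 3.88% lower. TSL1, which encodes a subunit of trehalose synthase, was 7.32-fold higher, while YML101C-A on the other strand was at 1.46-fold (1.35 to 1.59), close to CUE4 of its own letter and number (log2 ratios of 0.55 and 0.47). Beside genes called lower, no same-letter frame was called, in 1 pair of the same number and 3 of adjacent number. With opposite letters, 2 of 2 same-number frames were called higher. In 6 opposite-letter pairs of adjacent number, 1 frame was called lower and 0 higher.

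Frames were also grouped by the function of the genes beside them, in lists chosen with earlier results of these data known. Next to the 55 stress-induced genes there were 16 dubious frames, of which 9 had at least 100 counts. All 9 were above the median gene with a median log2 ratio of 0.84, 3 were called higher and 0 lower, and the genes beside them had a median of 1.93. This depends on the list, which left out the stress protein gene DDR48. Its same-letter frame YMR173W-A was at −0.76, as was DDR48 itself. Of the 9 frames, 4 had the same letter as the listed gene and 5 the opposite letter. Of all 335 frames 55.5% were above the median gene, 8.06% were called higher and 3.88% lower, and their median was 0.08. The 3 called were YFR052C-A, YPR160W-A and YBR126W-B, of which YBR126W-B is not called under the other scalings. Those not called included YIL100C-A, at 0.79 beside the repressor gene XBP1 of the same letter (1.93), and YIL100W, at 0.15 on the other strand of the same gene. YKL036C was at 0.84 opposite the UDP-glucose pyrophosphorylase gene UGP1 (0.55).

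Next to the 138 ribosomal protein genes lay 32 frames, of which 17 had at least 100 counts. Their median was −0.15, 13 of the 17 were below the median gene, 0 were called higher and 1 (YNL303W) lower, beside 8.06% and 3.88% of all 335 frames, and the genes had a median of −0.21. With 5 added to each count YNL303W was at −0.99 and not called. YBR190W, between RPS9B and RPL21A of the same letter, was at −0.31 with its neighbours at −0.31 and −0.33. YNL097W-A, with 2871 counts in the xrn1 deletion library and 2730 in the wild-type library, was at 0.58 opposite RPS7B at −0.06. Frames next to respiration genes had a median of −0.05 over 10 frames with 0 called in either direction, and their genes a median of 0.27. Among them YLR294C was at 0.30 beside the ATP synthase gene ATP14 of the same letter at 0.28, and YGR182C at 0.55 beside QCR9 at 0.71. Other same-letter pairs lay apart. YDR118W-A was at −0.19 beside COX26 at 2.24, the only listed gene beside these 10 frames that was called higher. YGL188C was at 0.73 beside COX4 at −0.07.

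The remaining lists held few frames. Of 5 measured frames beside mating genes 2 were called higher (YGL052W and YML047W-A) and 0 lower, beside 8.06% and 3.88% of all 335 frames, with a median of −0.14. YNL144W-A, with 40 counts in the xrn1 deletion library and 101 in the wild-type library, was at −0.82 beside the a-factor gene MFA2 of the same letter at −1.12, and YJR087W was at −0.14 beside the G protein gene STE18 at −0.12. Beside glucose uptake genes 4 frames were measured, with YFR052C-A called higher and YJL215C at −0.43 opposite the hexose transporter gene HXT8 at 0.13. The 1 measured frame beside a histone gene, YOL013W-B, was at −0.37 with the variant histone gene HTZ1 at −0.09.

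Few measured frames lay near chromosome ends. Of the 335 frames 9 lay beside genes within 20 kb of an end, of which 3 were called higher and 2 lower, against 7.36% higher and 3.37% lower among the other 326. Among protein-coding rows near an end, 7.27% of 110 were called higher and 10.9% lower. Besides YFR052C-A and YNL338W, the frame YDR544C, with 99 counts in the xrn1 deletion library and 56 in the wild-type library, was 2.52-fold higher (1.80 to 3.56). YMR316C-B, YEL074W, YIR036W-A and YLR463C lay between −0.13 and 0.24. Frames with a suffix were called higher in 11.7% of 103 and frames without in 6.47% of 232, and the lower shares were 3.88% in both groups. W frames had a median of 0.11 (n = 170) and C frames one of 0.03 (n = 165).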

How the data were processed

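Raw read counts per open reading frame were deposited by the authors in 1 table, with 1 column for the xrn1 deletion library and 1 for the wild type. Tools listed in the submitters' processing notes are Subread, featureCounts, TopHat2 2.1.1, Trimmomatic and FastQC, and the builds listed are R64 and sacCer3. Strand use and the handling of multiply mapped reads were not given in the sources used. Per the labels' protocols, RNase-trimmed, sarkosyl-permeabilised cells were run on for 5 min at 30 °C with biotin-labelled UTP.

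Ratios were divided by the median raw ratio (0.701) of protein-coding rows with at least 100 counts, which hides any shift shared by the whole transcriptome. The 95% interval of a ratio was obtained from the exact Clopper-Pearson interval of the xrn1 share of a row's counts. Reads carry no molecular identifiers that the protocols name, so intervals and the floor of 3 counts cover counting error only. Rows with at least 100 counts were called higher (2-fold or more) or lower (ratio 0.5 or less) if the interval excluded 1. With 1 library per strain no test was possible. The procedure was run on simulated data that held counting error only. That run cannot show how much libraries of the same strain would differ.

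A partner was the protein-coding row of the same number, otherwise the mean of those numbered 1 lower and 1 higher. Symbols, positions and sequences are from RefSeq R64, which holds 3 of the 573 dubious rows and 5273 of the 5309 protein-coding rows. Named rows were the 12 highest, 12 lowest and 8 largest by count, their neighbours and the frames beside the listed genes; others, such as same-number pairs and documented overlaps, were picked after their values were seen. The members and lists were chosen with earlier results of these data known. Alternatives were 4 other scalings (total counts of all or of protein-coding rows, edgeR TMM, DESeq2 size factors), other count minimums, folds and partner rules, and 5 added to each count. Computations used R 4.3.3 with edgeR 4.0.16 and DESeq2 1.42.0, and Python 3.11.15 with scipy 1.17.1, pandas 2.3.3 and numpy 2.4.6.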

Additional observations from a re-analysis of the deposited data

How the results depend on the processing

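No paired analysis was possible because the deletion and the wild type are 1 library each. Leaving out a library would have left nothing to compare. The other scalings shifted all log2 ratios by −0.03 to −0.01. Under each of the 4, 25 frames were called higher, against 27, and 14 or 15 lower, against 13. YBR126W-B (log2 ratios of 0.98 to 0.99) and YDL050C, not a named frame and at 1.01 under the main scaling, fell below 2-fold under all 4. With 5 added to each count, 27 frames were called higher and 11 lower, and YNL303W (−0.99) was not called. The other 150 values of named frames with a finite ratio kept their call. The numbers of frames called moved with the threshold. They were 77 higher and 27 lower with no count minimum, 66 and 27 with at least 20 counts, and 11 and 3 with at least 500, where fewer frames are measured. At 1.5-fold they were 66 and 48, and at 3-fold 9 and 4. The median log2 ratio was 0.15 with no minimum and 0.5 added to each count, which are 2 choices changed together.

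The correlation with neighbours depended on which neighbours were used. It was 0.06 with the gene numbered 1 lower, 0.22 with the gene numbered 1 higher, 0.34 with same-letter genes, and 0.23 where both rows had at least 500 counts. With same-number genes it was 0.78 for the same letter, 0.60 for the same letter without YPR160W-A, and −0.10 for the opposite letter. These 3 settings were chosen after seeing the data, and the cause of the differences was not tested. The share of counts in dubious frames was 0.421% in the xrn1 deletion library and 0.406% in the wild-type library without the 10 largest frames, and 0.643% and 0.582% of the protein-coding counts. Depth limits the 96 frames under 20 counts and the 142 with 20 to under 100, for which no call was made.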
